A study of Sus scrofa with 12 samples.

Results

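The proteasome subunit genes of longissimus dorsi, the loin muscle, were described in 12 Iberian pigs. Members were the genes whose pig symbol starts with PSMA, PSMB, PSMC, PSMD or PSME and a number, without the inducible PSMB8 and PSMB9 and without PSMC3IP and PSME3IP1, which match the letters but name partner proteins. They were 37 of the 25880 genes in the count tables, with 7 PSMA, 7 PSMB, 6 PSMC, 13 PSMD and 4 PSME genes. PSMA6, PSMB5, PSMB6 and PSMD2 were not analysed here. The 6 pigs of the High MB group had breeding values for myoglobin from 0.159 to 0.206 and held 2.376 to 2.559 mg of myoglobin per g of muscle. The 6 pigs of the Low MB group had breeding values from -0.248 to -0.149 and held 1.226 to 1.58 mg per g. The pigs of both groups were castrated males of a single closed commercial population, fattened outdoors in a free-range system and slaughtered at about the same age. No treatment or allele was given to either group. One library was made for each pig.

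The proteasome is the large protease that degrades proteins tagged with ubiquitin. Its core is a barrel of alpha rings (PSMA), which gate the entry, and beta rings (PSMB), which hold the cutting sites. A regulatory cap of ATPases (PSMC) and non-ATPase subunits (PSMD) binds, unfolds and feeds in the substrate, and other activators (PSME) can take the place of the cap. In skeletal muscle the proteasome removes damaged and surplus myofibrillar proteins, and its activity is known to rise when muscle wastes. Interferon replaces constitutive cutting subunits with inducible ones and raises the activators PSME1 and PSME2, giving the immunoproteasome.

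Between 38914271 and 91318334 counts per pig were assigned to genes. The totals fell into 7 standard libraries with 38914271 to 40001432 counts and 5 deep libraries with 59227608 to 91318334 counts, and the deep libraries came from 2 High MB and 3 Low MB pigs. High MB pig 2 stood apart, with a scaling factor of 1.21 where the other pigs had 0.891 to 1.03. Muscle identity was checked with 8 fibre markers, of which 4 could be matched by symbol, and their summed level was 32552 to 81579 CPM (gene counts scaled to a common library total) in the High MB group and 58840 to 110847 CPM in the Low MB group, with High MB pig 2 the lowest of the 12. MYH1, MYH2, MYH7 and TTN were not analysed here.

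The members together made up 0.300% to 0.612% of the gene counts of a pig. Their level per length, in CPM per kilobase of RefSeq exon, ran over a 44.2-fold range among the 35 genes that were expressed. The remaining 2, PSMA8 and PSMB11, had 0 counts in every pig, which allows at most 0.0329 to 0.0771 CPM for a floor of 3 counts per library, with counting error only and provided that reads of the gene could be counted. ADRM1, a ubiquitin receptor of the cap that is used widely among cells, was also listed at 0 in every pig, so a 0 in these tables need not mean a lack of RNA. PSMA8 is the alpha subunit of the testis and PSMB11 the beta subunit of the thymic cortex. Lengths were summed over all annotated exons of a gene, so a long untranslated exon lowers the value.

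The 6 alpha ring genes lay between 37.3 CPM per kb for PSMA3 and 180 CPM per kb for PSMA7. In the beta ring PSMB3, a structural subunit, had the highest level per length of all members, 200.1 CPM per kb, and PSMB10 had 5.96 CPM per kb. Without PSMB10, the 11 core genes of the alpha and beta rings spanned a 5.36-fold range although the subunits they encode stand in equal number in the barrel.

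The ATPase ring was the most even of the role groups, with 60.4 CPM per kb for PSMC4 and 120.4 CPM per kb for PSMC3, a 1.99-fold range. Among the non-ATPase genes PSMD13, a lid subunit, was highest at 155 CPM per kb. The lowest were PSMD5 (8.99 CPM per kb), PSMD9 (6.69 CPM per kb) and PSMD10 (4.53 CPM per kb), which encode chaperones that help to build the base of the cap and leave the finished particle. The 4 activators were at 11.5 CPM per kb for PSME3, the nuclear activator, 16.4 for PSME2, 31.4 for PSME1 and 34.9 for PSME4, the activator of histone turnover in germ cells.

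**Figure D1:**
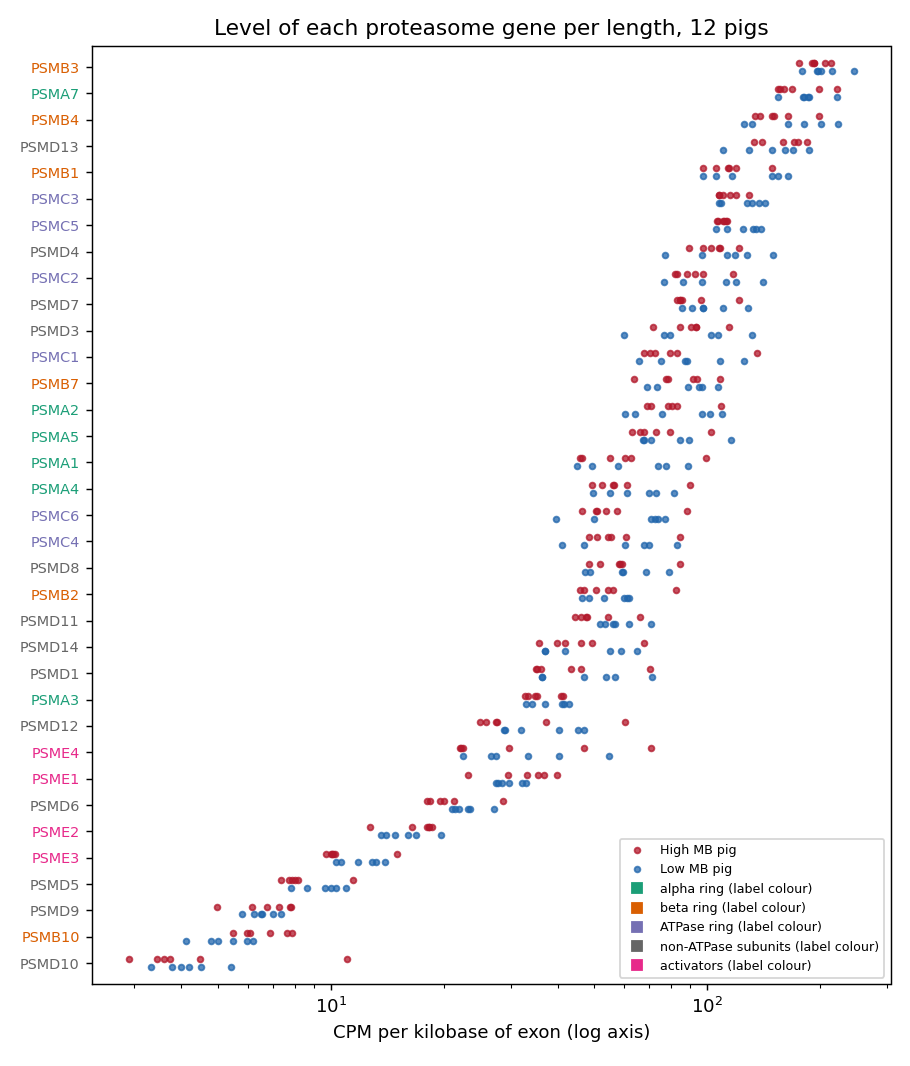
Level of each of the 35 expressed members in CPM per kilobase of exon, on a log axis, with 1 point per pig coloured by group and gene names coloured by role. PSMB3 and PSMA7 lie at the top, PSMB10 and PSMD10 at the bottom, and the points of both groups overlap in every row.

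No member passed the test of High MB against Low MB pigs. A call needed an edgeR quasi-likelihood p below 0.10 after Benjamini-Hochberg adjustment together with a log2 fold change (FC) beyond 0.58 in either direction. Such a call was made for 0 of 35 members, and 0% of the 13373 genes tested were called in this comparison. At an unadjusted p under 0.05, 1 member, PSMB10, was found, against 8.46% of all genes tested. Without High MB pig 2 it was 7 of 35 members, against 10.3% of all genes, and it was 0 without High MB pig 3, 4 or 5 or Low MB pig 2 or 4 and 2 without Low MB pig 6. With any 1 of the 12 pigs left out, 0 members were called. DESeq2 called 0 members, against 0.201% of the genes to which it gave an adjusted p-value. The values of the groups overlapped for all 35 members, and 0.426% of all genes tested had groups that did not overlap.

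The differences were small. The log2 FC of the members ran from -0.19 for PSMD11 to 0.34 for PSMB10, with a median of -0.087, and the median of all genes tested was -0.016. Lower mean values in the High MB group were found for 27 members and higher for 8 (22.9%), where 46.9% of all genes tested were higher. The count of 8 rests on single pigs, since it was 5 without High MB pig 2 and 17 without Low MB pig 4, and the median was then -0.19 and -0.0041. It was 13 in the deep libraries alone, with a median of -0.033, and 8 in the standard libraries alone, with a median of -0.20.

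**Figure D2:**
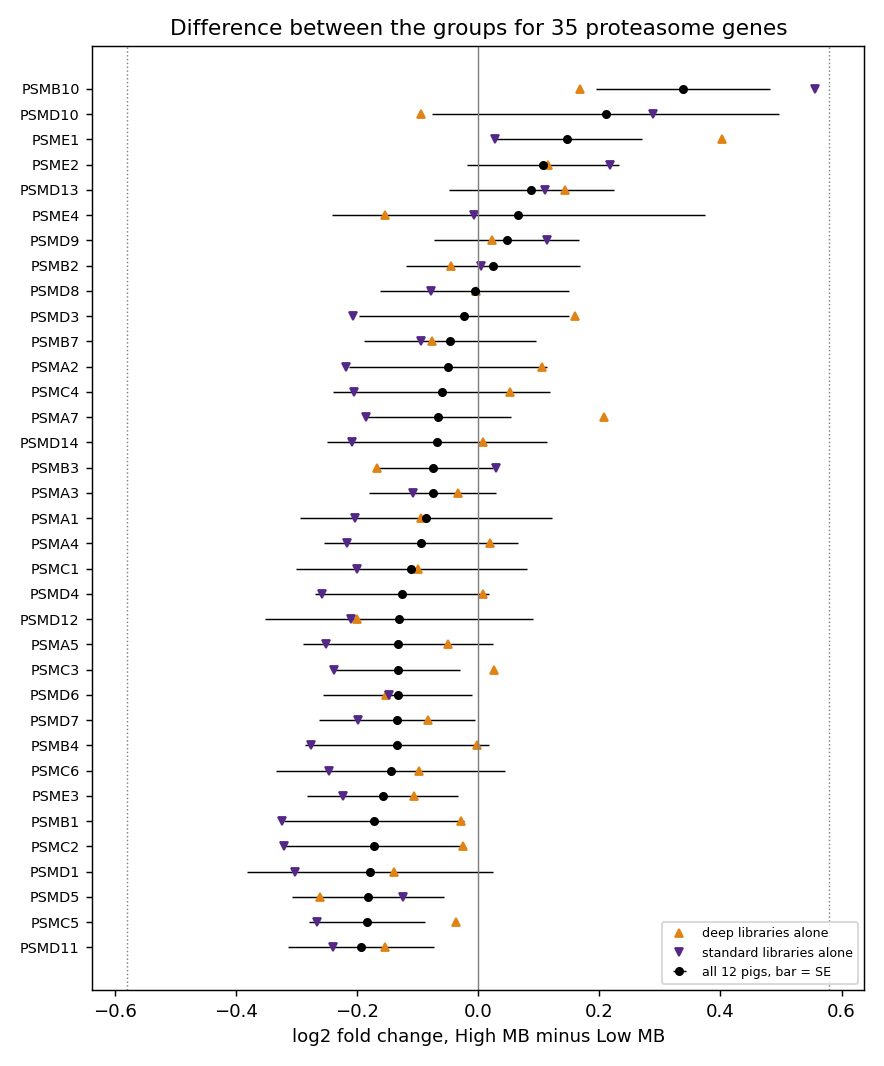
Log2 fold change of High MB minus Low MB for each member in all 12 pigs (black, bar = SE) and in each depth class alone (triangles), with dotted lines at the limit of 0.58 in either direction. No point reaches the limit, and PSMB10 is the highest at 0.34.

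In the alpha ring 6 of 6 genes had a lower mean in High MB pigs, and the median log2 FC was -0.081, with no gene called. In the deep libraries alone 3 of the 6 were higher in High MB pigs, with a median of -0.0066, and in the standard libraries alone 0 were, with a median of -0.21. PSMA7 had 159 CPM in the lowest pig, 169 in the median and 228 in the highest pig of the High MB group, and 159, 188 and 228 CPM in the Low MB group. The ranges of PSMA7 coincide, and its log2 FC was -0.067 ± 0.12 (SE). PSMA5, which has the lowest p of the ring, had 67.5, 75.6 and 110.1 CPM in the High MB group and 72.3, 83.4 and 123.8 CPM in the Low MB group. Its log2 FC of -0.13 ± 0.16 (SE) had an adjusted edgeR p of 0.843.

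PSMA3 varied least of the alpha genes, with 91.7, 98.1 and 115 CPM in the High MB group against 92.3, 109 and 120.2 CPM in the Low MB group. PSMA1 varied most, with 56.8, 71.6 and 123 CPM against 55.9, 81.7 and 110.1 CPM. The highest PSMA1 values were those of High MB pig 2 and Low MB pig 4, and the lowest those of deep libraries in both groups.

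Among the beta genes, 4 of 6 were lower and 2 higher in the High MB group, with 1 of 6 higher in deep libraries alone and 3 of 6 in standard ones. PSMB7, the subunit with trypsin-like activity, had 61.5, 82.1 and 104 CPM in the High MB group and 66.9, 88.7 and 103 CPM in the Low MB group. PSMB3 had 124, 136 and 150 CPM against 126, 140 and 173 CPM. The groups overlap for both, though 2 Low MB pigs lay above all High MB pigs for PSMB3, with log2 FCs of -0.047 ± 0.14 and -0.074 ± 0.099 (SE).

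PSMB10 is the inducible subunit that takes the place of PSMB7. It had 5.40, 6.38 and 7.75 CPM in the High MB group and 4.04, 5.16 and 6.09 CPM in the Low MB group. These levels rest on 157 to 546 counts in a pig. The upper end of the Low MB group lies below the median of the High MB group, but the groups overlap. The log2 FC was 0.34 ± 0.14 (SE), with an unadjusted edgeR p of 0.0332, an adjusted p of 0.566 and an exact two-sided permutation p of 0.0238. Deep libraries alone gave a log2 FC of 0.17 and standard libraries alone 0.56.

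In the ATPase ring 6 of 6 genes had a lower mean in High MB pigs, and their median log2 FC was -0.14. Deep libraries alone gave 2 of 6 higher in High MB pigs and a median of -0.031, and standard libraries alone 0 of 6 and -0.24. PSMC5 had the lowest p of the ring. It had 214, 222 and 226 CPM in the High MB group and 211, 258 and 279 CPM in the Low MB group, so that the High MB pigs lay close together at the bottom of the wider Low MB range. Its log2 FC was -0.18 ± 0.096 (SE), with an unadjusted edgeR p of 0.0735, an adjusted p of 0.606 and an exact two-sided permutation p of 0.0368. Deep libraries alone gave -0.037 and standard libraries alone -0.27.

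PSMC3 had 172, 180.2 and 208 CPM in the High MB group against 172, 208 and 229 CPM in the Low MB group. PSMC4 had 75.1, 84.9 and 131 CPM against 63.3, 99.4 and 129 CPM. PSMC6, the most variable of the ring, had 78.6, 88.6 and 149 CPM against 66.8, 121 and 131 CPM. For all 3 the medians were lower in the High MB group and the ranges overlapped.

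Of the 13 non-ATPase genes, 10 were lower and 3 higher on average in the High MB group, and the median log2 FC was -0.13. It was -0.083 with 5 higher in the deep libraries alone and -0.20 with 3 higher in the standard libraries alone. PSMD11, a lid subunit, had 137, 147 and 203 CPM in the High MB group and 159, 173 and 217 CPM in the Low MB group. It had the lowest p of the group, with a log2 FC of -0.19 ± 0.12 (SE) and an adjusted edgeR p of 0.656. It was -0.12 without Low MB pig 4. PSMD13 had 209.8, 259 and 289 CPM against 173, 243 and 293 CPM, so the Low MB range encloses that of the High MB group.

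PSMD10, a chaperone of the base also known as gankyrin, had 4.81, 6.08 and 18.3 CPM in the High MB group and 5.52, 6.81 and 9.01 CPM in the Low MB group. The value of 18.3 CPM is that of High MB pig 2, and the next pig of its group had 7.46 CPM. The log2 FC of 0.21 ± 0.29 (SE) became -0.19 without that pig.

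Among the activators 3 of 4 were higher and 1 lower on average in the High MB group, and none was called, and in either depth class alone 2 were higher. PSME1 had 22.4, 33.3 and 38.6 CPM in the High MB group and 26.7, 28.3 and 32.1 CPM in the Low MB group. PSME2 had 10.8, 15.3 and 15.7 CPM against 11.5, 13.0 and 16.6 CPM. PSME1 and PSME2 form a joint ring, and their log2 FCs of 0.15 ± 0.12 and 0.11 ± 0.13 (SE) had adjusted edgeR p-values of 0.758 and 0.842. The log2 FC of PSME1 was 0.25 without High MB pig 2 and 0.086 without High MB pig 6, and it was 0.40 in the deep libraries alone and 0.028 in the standard libraries alone. PSME3 had 32.9, 34.3 and 50.9 CPM in the High MB group against 35.04, 41.9 and 47.3 CPM in the Low MB group, with a log2 FC of -0.16 ± 0.13 (SE), which was -0.25 without High MB pig 2 and -0.098 without Low MB pig 4. PSME4 was the most variable member, with 171, 202 and 549.7 CPM against 174, 235 and 425 CPM, and its log2 FC of 0.066 ± 0.31 (SE) was -0.23 without High MB pig 2. PSME4 was highest in pig 2 of the High MB group and in pig 3 of the Low MB group.

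The level of the members varied from pig to pig within both groups. The summed level of the members was 3360 CPM in the lowest, 3696 in the median and 5041 in the highest pig of the High MB group, and 3366, 4180 and 4988 CPM in the Low MB group. The group means were 3883 ± 601 CPM and 4122 ± 663 CPM (SD, n = 6). As a share of all gene counts, without TMM scaling, the order of the means turned, with 0.406% ± 0.102 and 0.401% ± 0.0750 (SD, n = 6), and both differences lie within the spread between pigs. The highest values were those of pig 2 in the High MB group and pig 4 in the Low MB group, and the highest of the 12 pigs exceeded the lowest 1.5-fold in CPM and 2.04-fold as a share of counts. The number of the 35 members above the mean of the gene was 28 in High MB pig 2 and 28, 29 and 30 in Low MB pigs 2, 3 and 4, and it was between 4 and 20 in the other 8 pigs.

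The level also differed with the depth of the library. The deep libraries had 3360 to 4059 CPM and the standard libraries 3651 to 5041 CPM, and 28 of 35 members had a lower mean log2 CPM in the deep libraries, where 50.3% of all genes tested were lower. The median deep minus standard difference was -0.33 for the members and -0.0019 for all genes tested, on the log2 scale. The summed muscle fibre markers ran the other way, with 75567 to 110847 CPM in the deep and 32552 to 74132 CPM in the standard libraries. The part of depth class and of fibre RNA in the level of the members was not tested, and in bulk muscle fewer cells of a type and less RNA per cell cannot be told apart.

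**Figure D3:**
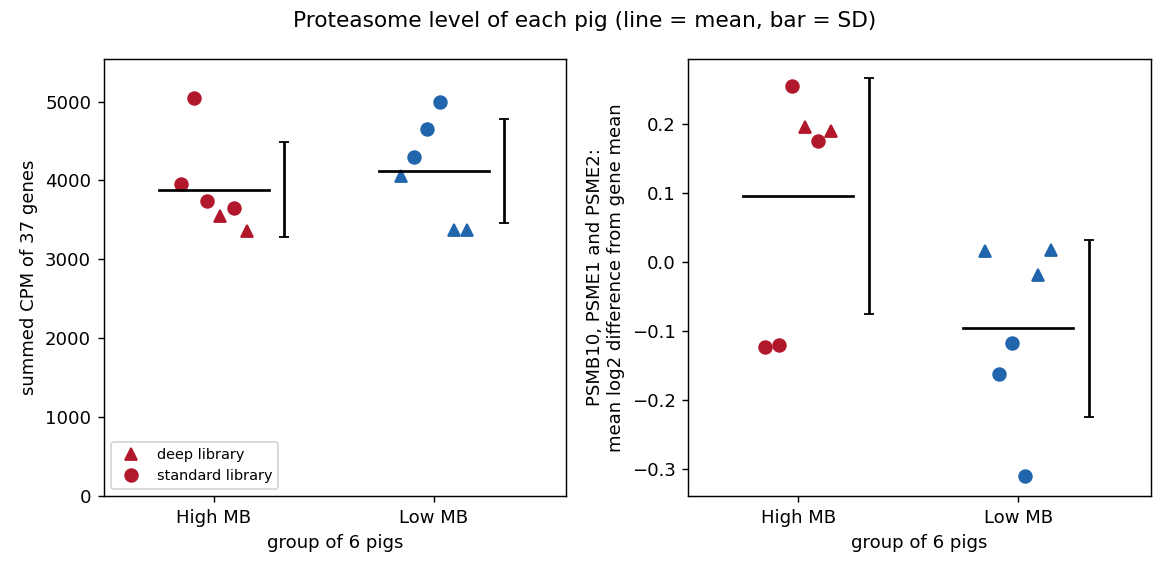
Left, summed CPM of the 37 members in each pig, and right, the mean log2 difference of PSMB10, PSME1 and PSME2 from each gene's own mean, by group (line = mean, bar = SD, n = 6) with triangles for deep and circles for standard libraries. On the left High MB pig 2 at 5041 CPM and Low MB pig 4 at 4988 CPM lie highest, and on the right the same pigs lie at -0.12 and -0.31.

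Most members followed each other from pig to pig. Over the 12 pigs the median Pearson correlation of log2 CPM between members was 0.624 over 595 pairs. Of these pairs, 58.5% were over 0.5 and 25.7% were below 0. The median was -0.0026 over all pairs of the genes tested and 0.0070 between a member and a gene that is no member. All points of a pair share the library and its depth, so these values are a description. Fibre markers ran against the members, with median correlations of -0.668 for ACTA1, -0.698 for CKM, -0.735 for TNNT3 and -0.321 for MYBPC1. With the means of group and depth class removed, these were -0.673, -0.772, -0.724 and -0.700 in the same order. The part of fibre RNA in the correlations between members was not tested. The median between members was 0.627 with the group means removed, 0.564 with the means of group and depth class removed, 0.619 in the standard libraries alone and 0.576 without High MB pig 2 and Low MB pig 4.

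Members differed in how far they followed the rest. The median correlation with the other members was over 0.7 for 23 and over 0.5 for 26 of 35, and with the means of group and depth class removed for 19 and 25. PSMA1 was highest at 0.887, followed by PSMD14, the deubiquitinase of the lid, at 0.876, PSMD1, a scaffold of the base, at 0.868, PSMD8, a lid subunit, at 0.868, and PSMC4 at 0.864.

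Weaker values were found for PSMC3 (0.467), PSMC5 (0.398), PSMD9 (0.120) and PSMB3 (0.102). Below 0 were PSMA7 (-0.138), PSMD13 (-0.223), PSME2 (-0.441), PSME1 (-0.446) and PSMB10 (-0.596). With the means of group and depth class removed, the sign of PSMA7 turned, at 0.149, and the value was 0.099 for PSMC3 and 0.221 for PSMC5, while PSMD9 had 0.401, PSMB3 0.228 and PSMD13 -0.112. The 4 members PSMA7, PSMB3, PSMD9 and PSMD13 correlated with each other at a median of 0.237, and PSMB3, PSMA7 and PSMD13 are also 3 of the 4 genes with the highest level per length.

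The inducible PSMB10, PSME1 and PSME2 correlated with the remaining members at a median of -0.503 over 96 pairs and with each other at 0.166 to 0.469. PSMB10 was lowest in Low MB pig 4, at 4.04 CPM, and in the High MB group lowest in pig 2, the pigs in which the other members were highest. With the means of group and depth class removed, the median correlation with the other members was -0.592 for PSMB10 and -0.559 for PSME1 but 0.069 for PSME2.

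**Figure D4:**
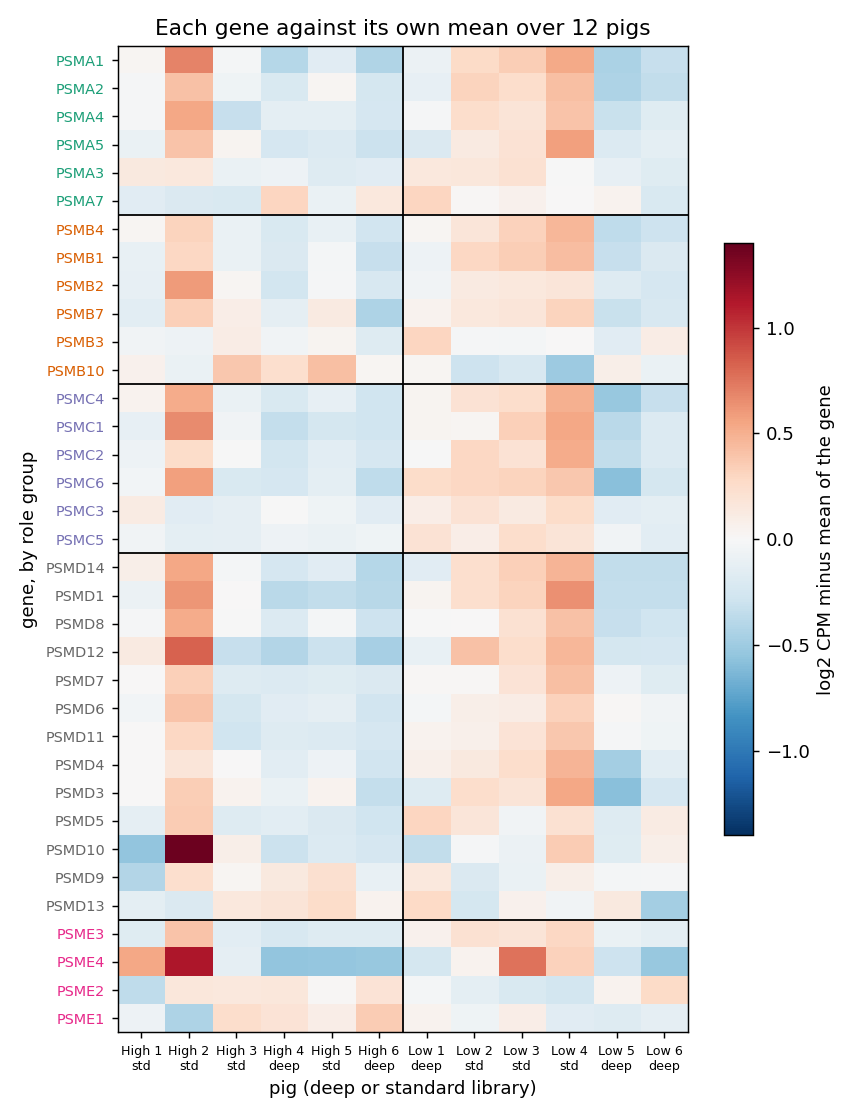
Log2 CPM of each member minus its own mean over 12 pigs, with genes grouped by role and ordered within a role by their median correlation with the other members. High MB pig 2 and Low MB pig 4 are red in most rows, deep libraries other than Low MB pig 1 mostly blue, and PSMB10 and PSME1 run the other way.

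**Figure D5:**
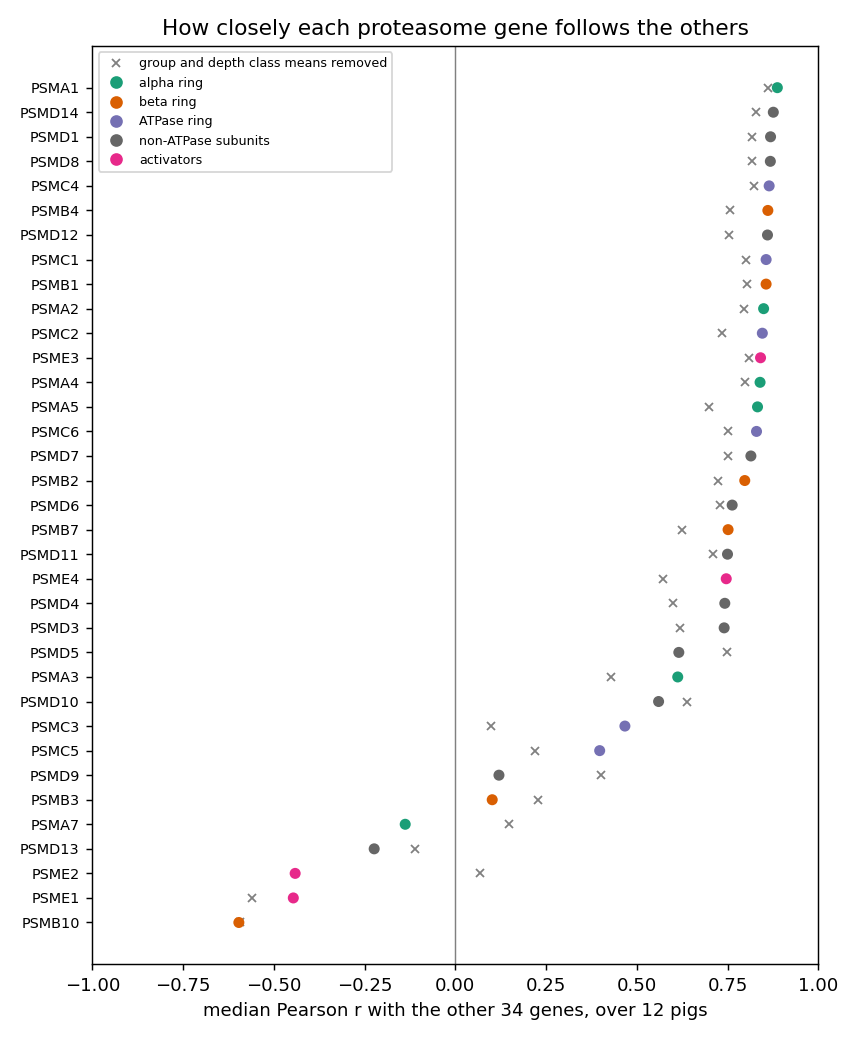
Median Pearson correlation of each member with the other members over 12 pigs, coloured by role, and the same with the means of group and depth class removed (crosses). Values run from 0.887 for PSMA1 to -0.596 for PSMB10.

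The correlation was also set beside properties of the genes. Over the 35 members, the median correlation of a gene with the others and the GC content of its exons had a Pearson r of -0.487 and a Spearman rho of -0.399, so the less coupled genes tended to be GC-rich, as PSMA7 with 60.3% and PSMB10 with 59.4%. PSMD3, at 61.6%, still had a median correlation of 0.741. The length of the exons gave a Spearman rho of 0.112 and the level per length 0.088. The median correlation and the deep minus standard difference had a Pearson r of -0.836 over members, and both come from the same libraries.

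The members lie on 14 chromosomes of Sscrofa11.1, with at most 6 on 1 chromosome. PSME2 (chr7:75154570-75157871, plus strand) and PSME1 (chr7:75161830-75164531, minus strand) lie close together, and their ends face each other across 3958 bases. Their values correlated at 0.166 over pigs.

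Promoters were read from the RefSeq annotation of Sscrofa11.1 as the 250 bases before and 50 after each gene start, for 37 of 37 members and 19509 genes in all. On either strand, CCGGAAG, the core of binding sites of ETS factors, was found in 15 of 37 member promoters and in 11% of all promoters. CCAAT was found in 16 of 37 (35.4% of all) and GGGCGG, the GC box, in 20 of 37 (50.6% of all). TGACTCAGC, an antioxidant response element of the kind NFE2L1 binds, was found in 0 of 37 (0.39% of all), and the looser TGACNNNGC, which includes it, in 4 of 37 (12.3% of all). These are matches of letters and not sites shown to be bound.

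CCGGAAG was found in both closely and weakly coupled members, of which examples are given here. It was found in PSMA1, PSMB1, PSMC2 and PSMC6, whose median correlations are 0.830 to 0.887, but also in PSMC5 (0.398), PSMD9 (0.120), PSMB3 (0.102) and PSMD13 (-0.223), and it was not found in PSMD1 (0.868), PSMD8 (0.868) and PSMC4 (0.864). The 80 bases before the gene start are shown for 4 closely coupled members, the weakly coupled PSMB3 and PSMD9, and PSME4, the most variable member, with the match or its reverse complement in capitals. The sequences run 5′ to 3′ on the strand of the gene, at chr2:44740022-44740101 (plus strand) for PSMA1, chr1:23747-23826 (plus) for PSMB1, chr9:103362604-103362683 (plus) for PSMC2, chr1:182328990-182329069 (plus) for PSMC6, chr12:23357617-23357696 (minus) for PSMB3, chr14:30822136-30822215 (minus) for PSMD9 and chr3:87231430-87231509 (plus) for PSME4.
PSMA1: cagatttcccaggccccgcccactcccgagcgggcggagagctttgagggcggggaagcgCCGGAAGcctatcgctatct
PSMB1: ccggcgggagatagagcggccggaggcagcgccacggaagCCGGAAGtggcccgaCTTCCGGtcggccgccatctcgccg
PSMC2: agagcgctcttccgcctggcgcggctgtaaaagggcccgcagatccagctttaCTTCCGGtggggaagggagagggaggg
PSMC6: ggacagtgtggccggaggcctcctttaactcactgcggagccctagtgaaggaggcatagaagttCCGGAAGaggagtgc
PSMB3: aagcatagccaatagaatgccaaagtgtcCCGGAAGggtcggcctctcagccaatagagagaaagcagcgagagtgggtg
PSMD9: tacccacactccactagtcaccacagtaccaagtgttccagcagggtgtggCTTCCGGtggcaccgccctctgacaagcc
PSME4: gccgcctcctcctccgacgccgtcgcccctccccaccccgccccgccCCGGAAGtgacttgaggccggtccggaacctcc

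PSMB10 is shown for comparison as the member with the lowest median correlation. Its 80 bases before the start (chr6:28547610-28547689, minus strand) hold GAAANNGAA, the core of elements bound by interferon regulatory factors, at 2 places, shown in capitals.
PSMB10: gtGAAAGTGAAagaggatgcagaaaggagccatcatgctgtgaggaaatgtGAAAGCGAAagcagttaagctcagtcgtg
This motif was searched after the PSMB10 promoter had been read. GAAANNGAA was found in 4 of 37 member promoters, PSMB10, PSMC4, PSME1 and PSME2, and in 7.92% of all promoters.

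The inducible PSMB8 and PSMB9, which take the places of PSMB5 and PSMB6, were kept apart from the members. PSMB8 had 5.76, 7.40 and 7.56 CPM in the High MB group and 2.83, 4.82 and 7.86 CPM in the Low MB group, with a log2 FC of 0.48 ± 0.20 (SE), an unadjusted edgeR p of 0.0349 and an adjusted p of 0.569. The log2 FC of PSMB8 was 0.34 in the deep libraries alone and 0.76 in the standard libraries alone. PSMB9 had 3.09, 3.40 and 4.28 CPM against 1.95, 2.79 and 3.98 CPM, with a log2 FC of 0.29 ± 0.18 (SE). Both groups overlap for either gene, and neither was called. PSME2 correlated with PSMB8 at 0.639 and with PSMB9 at 0.683, PSMB10 at 0.529 and 0.462, and PSME1 at 0.087 and 0.225.

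Markers of other cells stand beside the inducible genes. All 5 macrophage markers were higher on average in the High MB group, with a summed level of 32.1 to 103 CPM in the High MB and 19.9 to 41.6 CPM in the Low MB group. The value of 103 CPM is that of High MB pig 2, and the next High MB pig had 53.7 CPM. All 5 fibroblast markers (532.9 to 944 against 275 to 707 CPM) and all 5 adipocyte markers (55.3 to 228 against 35.8 to 199 CPM) were also higher on average. So were the 4 endothelial markers tested (114 to 157 against 70.1 to 175 CPM) and the 2 red blood cell markers tested (66.4 to 146 against 38.4 to 84.3 CPM). The listed endothelial marker VWF and red blood cell marker HBA1 were not analysed here. An unadjusted p under 0.05 was found for 3 of 5 macrophage, 2 of 5 fibroblast, 2 of 5 adipocyte, 0 of 4 endothelial, 0 of 4 T cell and 2 of 2 red blood cell markers, against 8.46% of all genes tested. Of the 4 T cell markers, 3 were higher and 1 was lower on average in the High MB group. They summed to 1.34 to 3.25 CPM in the High MB and 0.949 to 3.24 CPM in the Low MB group. The lowest count in a pig was 1 for CD5, 6 for CD3D, 9 for CD2 and 12 for CD3E. None of these markers was called, and their part in the values of PSMB8, PSMB9, PSMB10, PSME1 and PSME2 was not tested.

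Other genes of the pathway were taken from 5 lists of 39 genes, of which 31 were tested. None was called, 4 were higher and 27 lower on average in the High MB group, and the median log2 FC was -0.14, where 46.9% of all genes tested were higher. In the deep libraries alone 13 of the 31 were higher, with a median of -0.056, and in the standard libraries alone 2 were, with a median of -0.19. Lower on average were 7 of 7 proteasome-bound cofactors, 9 of 9 shuttle factors and unfoldase genes, 6 of 7 regulators of proteasome genes, 2 of 3 assembly chaperones and 3 of 5 genes of ubiquitin and its E1 enzymes. In the deep libraries alone 3 of the 7 cofactors, 1 of the 9 shuttle factors and unfoldase genes and 3 of the 7 regulators were higher. So were 2 of the 3 assembly chaperones and 4 of the 5 genes of ubiquitin and its E1 enzymes.

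At an unadjusted p under 0.05 there were 2 of the 31, and 8.46% of all genes tested were under that limit. ZFAND5, which binds and stimulates the proteasome in muscle, had 425, 500.1 and 626 CPM in the High MB group and 453, 666 and 776 CPM in the Low MB group, with a log2 FC of -0.36 ± 0.15 (SE) and an adjusted edgeR p of 0.564. Its log2 FC was -0.10 in the deep libraries alone and -0.54 in the standard libraries alone. Its groups overlap, and the median of the Low MB group lies above the highest High MB pig.

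The pathway genes also followed the members in part. The median correlation of a pathway gene with the members was over 0.5 for 17 of 31 and below 0 for 4, and with the means of group and depth class removed for 11 and 8. POMP, the chaperone that matures the core, had 58.7, 70.1 and 86.4 CPM in the High MB group against 57.4, 72.2 and 96.0 CPM in the Low MB group and a median correlation of 0.775 (0.612 with those means removed). VCP, the unfoldase that extracts ubiquitinated proteins, had 444, 497.7 and 664 CPM against 427, 560.5 and 789.7 CPM and a median correlation of 0.831 (0.749).

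The transcription factor NFE2L1, which raises proteasome genes when the proteasome is blocked, had 589, 901 and 1207 CPM in the High MB group against 590.4, 838 and 1248 CPM in the Low MB group. Its median correlation with the members was 0.688, or 0.438 with the means of group and depth class removed, and its log2 FC was 0.096 ± 0.20 (SE), with values from 0.0065 without Low MB pig 5 to 0.24 without Low MB pig 3 and 0.0035 with the depth class as a covariate. NFE2L2, its relative in the response to oxidants, had 36.7, 43.2 and 50.5 CPM against 40.0, 48.0 and 52.9 CPM and a median correlation of 0.481, which was -0.046 with those means removed. The protein of either factor is controlled after translation, and only RNA was measured here.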

How the data were processed

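Longissimus dorsi RNA of 12 pigs was sequenced as paired 150-base reads, 1 library per pig. The authors used Trim Galore for trimming, HISAT2 for alignment to Sscrofa11.1 and HTSeq for counting, and deposited the raw counts per gene without normalization. Versions, annotation release and strand setting are not given in the sources used here. Between 50.9% and 52.0% of uniquely placed reads lay in no gene, and these lines were left out. The 12 transcript tables were not used, since no table at hand names their genes. Symbols were matched for 14857 gene IDs.

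Groups were taken from the labels. High MB was set against Low MB with edgeR 4.0.16 in R 4.3.3 (TMM scaling, filterByExpr, quasi-likelihood test, no covariate), p-values adjusted over all 13373 genes. Genes were called at an adjusted p under 0.10 and an absolute log2 FC over 0.58. The SE came from the test statistic. The scripts were tested on simulated data. DESeq2 1.42.0 was the alternative test. CPM values were TMM-scaled, and a prior count of 2 entered their logarithm. Single members were also compared by exact permutation over 924 splits of the pigs, with a smallest possible p of 0.0022. Deep and standard libraries were separated at the largest gap of the totals. The pigs were separate animals of 1 season, chosen without full siblings. Other scalings, filters, the depth class, a replicate block and leaving out each pig were tried. Python 3 scripts did the rest.

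Members and lists were chosen with earlier results of these data known. By rule, the genes named in each role group were those with the highest and lowest level per length, the lowest p and the largest spread, with PSMB7, PSMB10, the PSME genes, the members removed by the filter, PSMB8, PSMB9, NFE2L1, NFE2L2, POMP, VCP and pathway genes with an unadjusted p under 0.05. Other genes named for their correlation or promoter were chosen after their values were seen. One gene that this rule names is not reported here.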

Additional observations from a re-analysis of the deposited data

Results flagged for a closer look

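Single pigs far from the other 5 of their group were looked for in 18 named members and in the median level of the members, 38 groups in all, by the gap to the next pig as a share of the range of the group. In 5 groups the share was over 0.625, and chance flags about 1 in 20 groups. That rate does not hold here, since some of these members were named for their large spread, and 4 of the 5 are the same pig. High MB pig 2 was the highest for PSMC6 (149 CPM, next 97.5 CPM, share 0.663), PSMD10 (18.3 CPM, next 7.46 CPM, share 0.673) and PSME3 (50.9 CPM, next 34.9 CPM, share 0.869). It was also highest in the median log2 difference of the members from their own means (0.34, next -0.041, share 0.655). High MB pig 1 was the lowest for PSME2 (10.8 CPM, next 13.9 CPM, share 0.675).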

How the results depend on the processing

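No member was called under any alternative run and no pathway gene under DESeq2, the depth class or the replicate block, and the median log2 FC of the members stayed negative, from -0.19 to -0.0041 with 1 pig left out. DESeq2 called 29 genes where edgeR called 0, none of them a member. The count of members higher in the High MB group, 8 of 35, was 5 to 17 with 1 pig left out and 13 in the deep libraries alone, and the cause was not tested.

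Replicate numbers did not pair the pigs (correlations of deviations from -0.21 to 0.14 over the 6 numbers, none of the 6 pairs closest to its own number). With a replicate block, 8 members were higher, the median log2 FC was -0.093, and 0 were called. PSME4 had a log2 FC of -0.027 in that paired fit.

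Among the named genes, 11 changed the sign of a log2 FC that was never called. With 1 pig left out the values ran from -0.089 to 0.080 for POMP, -0.25 to 0.035 for PSMA1, -0.22 to 0.0016 for PSMA5, -0.11 to 0.030 for PSMB7, -0.17 to 0.061 for PSMC4, -0.19 to 0.32 for PSMD10 and -0.23 to 0.26 for PSME4. Of those that kept their sign, PSMA7 ran from -0.14 to -0.0090, PSMB3 from -0.11 to -0.016 and PSME2 from 0.081 to 0.18. Upper quartile factors gave 0.027 for POMP and 0.0072 for PSMB7, and the depth class as a covariate gave -0.087 for PSME4. The deep libraries alone gave 0.080 for POMP, 0.21 for PSMA7, 0.026 for PSMC3, 0.052 for PSMC4, -0.094 for PSMD10, -0.15 for PSME4 and 0.016 for VCP, and the standard libraries alone 0.029 for PSMB3 and -0.0078 for PSME4.

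The median correlation between members was 0.591 to 0.661 with 1 pig left out, 0.604 with RLE factors and 0.622 by rank. Leaving out the 10 genes with the highest counts gave 0.599. That alternative for the correlation, the standard libraries alone and the removal of High MB pig 2 and Low MB pig 4 were chosen after the data were seen.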
